A study of Mus musculus with 8 samples.

Results

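Messenger RNA levels of 9 genes that shorten the life of transcripts or restrain proliferation were examined in B cells on their way into the germinal center. They were the ZFP36 family (Zfp36, Zfp36l1 and Zfp36l2), the endonuclease Regnase-1 (Zc3h12a) with the Roquin proteins (Rc3h1 and Rc3h2), and the BTG/TOB family (Btg1, Btg2 and Tob1). The 9 were found by gene symbol among the 24259 genes of the count table, and all 9 were among the 12744 genes with enough counts to be tested. They were selected on families, with measured values of the same libraries already known: Zfp36 had been among the genes that one of the count tests called between the groups. Differences between the groups are therefore given for these genes as a description, without a p-value for any of them.

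The cells were NP+IgDlowB220+ pre-GC B cells, that is, B cells that bind the hapten NP and have lost most surface IgD, sorted from lymph nodes 3 days after immunization with NP-OVA. The label strain was C57BL/6, and all recipients were CD45.1 SAP-deficient mice (Sap-/-), whose own T cells do not sustain germinal centers, immunized with the antigen and LPS in alum after they had received OT-II T cells, which recognise ovalbumin. The T cells given to HET recipients were CD4-CrexBcl6fl/+, with 1 floxed Bcl6 allele removed by a Cre recombinase expressed from Cd4 regulatory sequence, and those given to WT recipients were CD4-Cre with intact Bcl6; the sequenced B cells carried no engineered Bcl6 allele in either group. Each group had 4 libraries of about 200 cells, all 4 drawn from 1 pool of recipients of that group, so the spread within a group is that of sorting and library preparation, and T cell genotype and pool cannot be told apart. The study compared the groups to look for signs of weaker T cell help in the B cells. Libraries held 6652386 to 12559189 counts, so that the rarest of the 9 genes, Zc3h12a, rested on 36 to 113 reads per library and the most abundant, Btg1, on 7637 to 16716. Comparisons between groups are limited by the 4 libraries in each and by the pooling, not by counting error alone. No molecular identifiers were used, so the counts are of reads.

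ZFP36 proteins bind AU-rich elements in the 3′ untranslated regions (3′ UTRs) of transcripts and bring in the CCR4-NOT complex, which removes the poly(A) tail. Roquin proteins recognise stem-loops and also recruit CCR4-NOT, and Regnase-1 cuts transcripts at stem-loops. BTG and TOB proteins bind the deadenylases of the same complex and slow cell proliferation. In lymphocytes these factors limit cytokine and cell cycle transcripts, and Zfp36 and Btg2 are also known as immediate early genes, transcribed within minutes of stimulation.

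The transcripts of the ZFP36 family carry AU-rich motifs themselves. In the longest 3′ UTR that GENCODE M21 annotates for each gene, the heptamer UAUUUAU was found 3 times in Zfp36, Zfp36l1 and Zfp36l2, and in each of the 3 genes 1 of these copies lay inside the nonamer UUAUUUAUU. The windows below are shown because they hold these sites, the motif in capitals, from the transcribed strand and 5′ to 3′.
Zfp36: cuuUAUUUAUgacgacuUUAUUUAUUguau
Zfp36l1: aacuguuggaUUAUUUAUUuuagaaauucu
Zfp36l2: acuauuuaacUUAUUUAUUaucuugugaaa
Rc3h1: acuuuacucaUUAUUUAUUgagaugaggag
Rc3h2: caaagacauuUUAUUUAUUuuacucuguaa
Btg2: aaaugaagagcUAUUUAUacauguuuuuuu

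The Zfp36 window spans bases 572 to 601 of a 3′ UTR of 774 bases. Both Roquin transcripts also held 1 nonamer each, in far longer 3′ UTRs of 7181 bases (Rc3h1) and 5331 bases (Rc3h2). Btg2 had a single heptamer, and none was found in the annotated 3′ UTRs of Zc3h12a, Btg1 or Tob1. Among 10211 tested genes with an annotated 3′ UTR, 29.9% held the heptamer and 8.13% the nonamer. Among 3′ UTRs of like length, where the shorter was at least 80% as long as the longer, the nonamer was present in 4.85% of those like Zfp36 in length, 9.12% like Zfp36l1, 9.05% like Zfp36l2, 25.8% like Rc3h1 and 20.8% like Rc3h2. The nonamer contains the heptamer, so the counts are not independent, and a match of letters is not evidence that a site is used.

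**Figure D1:**
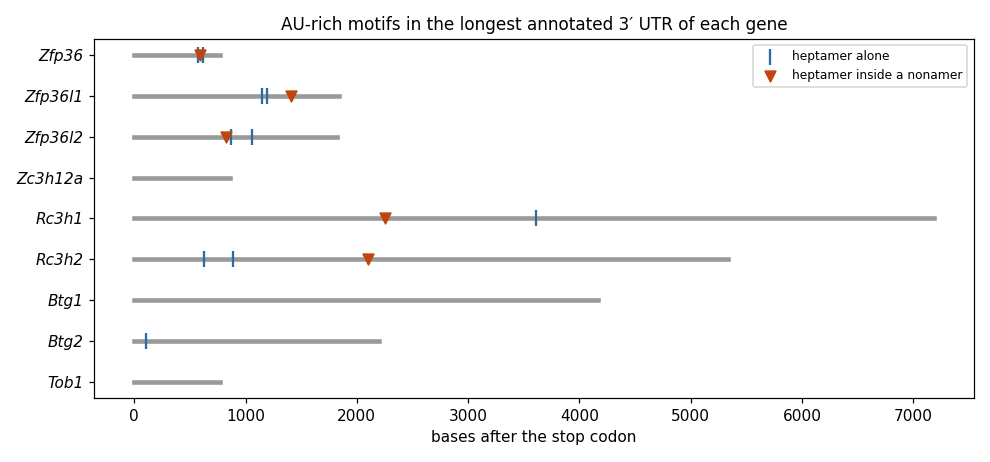
Positions of AU-rich motifs in the longest annotated 3′ UTR of each of the 9 genes, in bases after the stop codon. Grey lines show the 3′ UTR, blue ticks a heptamer alone and red triangles a heptamer inside a nonamer; the 3 ZFP36 family genes hold 3 heptamers each, and Zc3h12a, Btg1 and Tob1 hold none.

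Because Zfp36 and Btg2 are both known as immediate early genes, their promoters were compared. The 250 bases upstream of the RefSeq start site on GRCm38.p6 are shown for both, with the serum response (CArG box) match of Zfp36 and the cAMP response element TGACGTCA of Btg2 in capitals. Both windows are read from the minus strand, that of Zfp36 at chr7:28379229-28379478 and that of Btg2 at chr1:134079156-134079405. The Zfp36 window lies inside the gene as GENCODE M21 annotates it (chr7:28376784-28380253). RefSeq and GENCODE thus place its start differently, and positions given for Zfp36 hold for the RefSeq start only.
Zfp36: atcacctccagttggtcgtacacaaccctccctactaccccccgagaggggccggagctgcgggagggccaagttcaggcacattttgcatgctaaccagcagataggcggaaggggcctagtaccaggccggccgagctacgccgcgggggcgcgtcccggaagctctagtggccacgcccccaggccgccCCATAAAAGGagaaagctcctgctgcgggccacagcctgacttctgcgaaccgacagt
Btg2: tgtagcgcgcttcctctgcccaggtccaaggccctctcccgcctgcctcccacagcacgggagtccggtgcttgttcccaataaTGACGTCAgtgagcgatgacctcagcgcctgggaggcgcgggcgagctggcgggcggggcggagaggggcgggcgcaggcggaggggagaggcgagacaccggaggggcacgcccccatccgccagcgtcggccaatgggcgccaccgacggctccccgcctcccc

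The CArG match of Zfp36 began 58 bases before the start site, and 1.63% of 32851 promoter windows (250 bases before to 50 after the start site) held such a match on either strand. The element in Btg2 began 166 bases before the start site and was found in 1.79% of windows. Rc3h1 held the AP-1 motif (TGANTCA, with C or G as N) 133 bases before its start, and 5.20% of windows held it. These 3 motifs were found in no other window of the 8 genes for which a promoter was given. Of the other motifs searched, TATAAA (13.6% of windows) was found in Zfp36l1, Btg1 and Tob1, CCAAT (37.4%) in Zfp36l1, Btg1, Btg2 and Tob1, and TGACG, which is part of the cAMP response element (20.8%), in Zc3h12a, Btg1, Btg2 and Tob1. An E2F motif (1.88%) was found in Zfp36l1, and an NF-kB motif (5.805%) in none of the 8. No match says only that these letters are not in the window.

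The genes fell into an abundant and a rare set, in the same order by the mean of the HET libraries and by that of the WT libraries. Levels are compared between genes in TPM, in which counts are scaled by gene length and library size. Over the 8 libraries Btg1 was highest at 1258 ± 199 TPM (SD, n = 8), followed by Zfp36 at 591 ± 120 TPM, Zfp36l1 at 281 ± 39.4 TPM and Btg2 at 268 ± 27.7 TPM. Among the 12731 tested genes with a TPM value, these 4 ranked 119, 202, 360 and 379 from the top. Zfp36l2 stood far below its relatives at 32.1 ± 7.42 TPM, and Tob1 reached 9.65 ± 1.91 TPM. Zc3h12a, Rc3h2 and Rc3h1 were the lowest per length, at 3.95 ± 1.29, 3.40 ± 0.655 and 3.13 ± 0.379 TPM.

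Of the 8 pairs of neighbours in this order, 5 differed in all 8 libraries (two-sided exact sign-flip permutation test on log2(TPM + 1), p = 0.00781, the smallest 8 libraries allow, adjusted p = 0.0125). The pairs were set by the same TPM values, and the libraries of a group came from 1 pool. The p-values therefore describe these libraries and not a spread between animals. Btg1 was 2.13 times as high as Zfp36 in mean TPM, and on the log2 scale Zfp36 exceeded Zfp36l1 by 1.06 ± 0.29 (SD, n = 8). The widest gap, 3.04 ± 0.29, separated Btg2 from Zfp36l2. Zfp36l2 exceeded Tob1 by 1.63 ± 0.46, and Tob1 was 2.44 times as high as Zc3h12a in mean TPM. Zfp36l1 and Btg2 did not differ beyond their spread, since Zfp36l1 was the higher in only 3 of 8 libraries (exact permutation p = 0.516, adjusted p = 0.516). Neither did Zc3h12a and Rc3h2 (higher in 6 of 8 libraries, exact permutation p = 0.203, adjusted p = 0.271) or Rc3h2 and Rc3h1 (5 of 8, exact permutation p = 0.336, adjusted p = 0.384). The order was the same when any library was left out, and it holds per length only: by CPM Rc3h1 and Rc3h2 stood higher and Zc3h12a was the lowest.

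**Figure D2:**
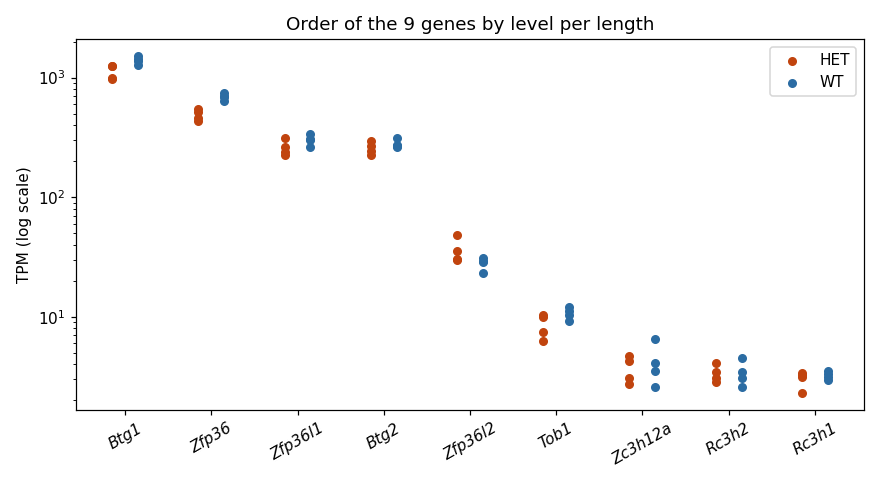
TPM of the 9 genes on a log axis, 1 point per library, HET in red and WT in blue, ordered by the mean over 8 libraries. Btg1, Zfp36, Zfp36l1 and Btg2 all lie above 200 TPM, and Zc3h12a, Rc3h2 and Rc3h1 all lie below 7 TPM in each library.

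Relatives outside the 9 genes were set beside them. Tob2, the closest relative of Tob1, was at 29.4 ± 7.69 TPM (SD, n = 8), above Tob1 in these cells. Zc3h12d, a relative of Regnase-1, was at 5.57 ± 1.08 TPM, against 3.95 TPM for Zc3h12a. Btg3 was at 1.01 ± 0.259 TPM and Zc3h12c at 0.158 ± 0.121 TPM, and Zc3h12b had at most 12 reads in a library and was not tested.

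Between HET and WT, 7 of the 9 genes had a lower and 2 a higher mean level in HET, and their median log2 fold change was -0.12. That median ranged from -0.24 without WT replicate 2 to -0.04 without WT replicate 3, and was -0.05 without HET replicate 4. Over all 12744 genes the median was -0.0014 and 50.1% were lower in HET. The groups did not overlap for Zfp36 and Btg1, which were lower in HET, or for Zfp36l2, which was higher, in CPM, counts scaled by TMM-normalized library size. Among all genes tested, every HET library lay below every WT library for 2.62% and above for 1.99%. None of the 9 was called by edgeR's quasi-likelihood test, which called 0.0235% of genes, and DESeq2 called 1 of the 9, Zfp36, and 0.687% of genes. An unadjusted p under 0.05 was reached by 2 of the 9 in edgeR and 3 in DESeq2. In edgeR 3.88% of all genes reached it with a lower and 3.34% with a higher level in HET. In DESeq2, run on the whole count table, 1360 of 24259 genes reached it in either direction. Since the 9 were chosen with this contrast known, nothing is read from these counts. In bulk samples, fewer cells with a transcript and less transcript per cell cannot be told apart.

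**Figure D3:**
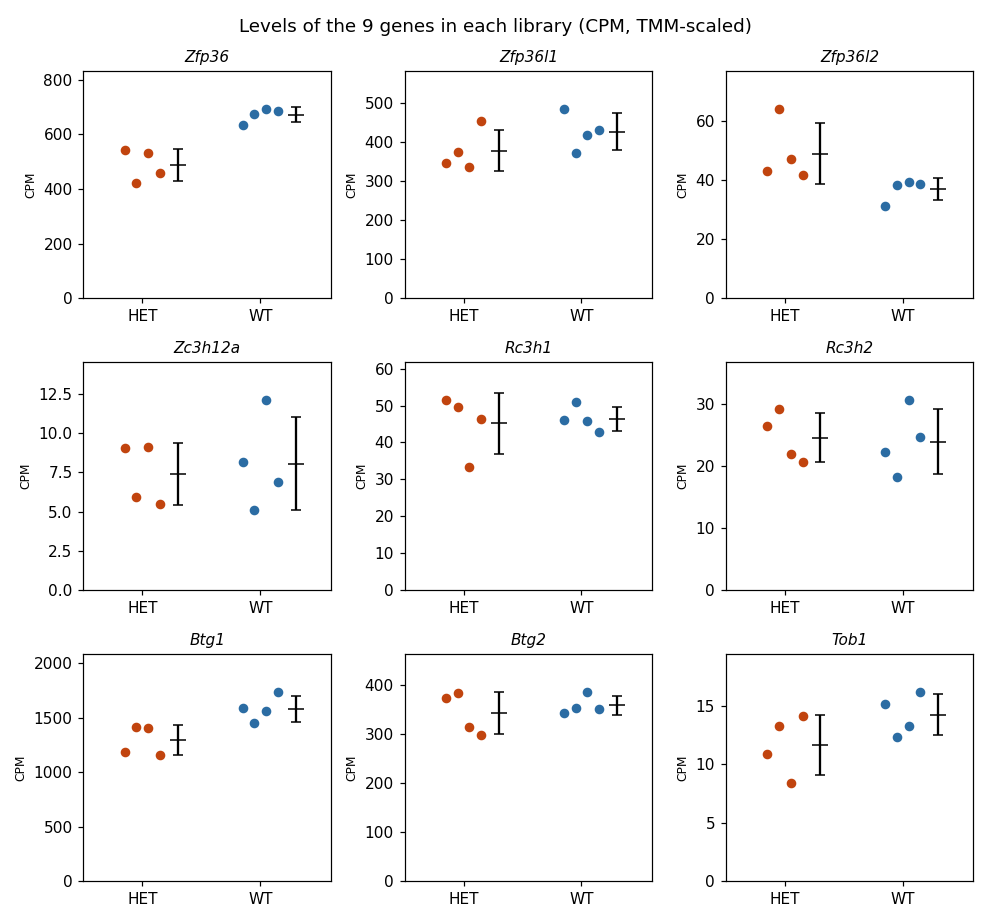
CPM of each of the 9 genes in each library, HET in red and WT in blue, on axes that start at 0; the black bars give the mean and SD of 4 libraries. The groups are apart for Zfp36, Btg1 and Zfp36l2 and overlap for the other 6.

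Zfp36, also called tristetraprolin, was the gene of the 9 with the largest difference relative to its error. Its level was 543, 421, 534 and 458 CPM in HET replicates 1 to 4 and 635, 674, 694 and 687 CPM in WT replicates 1 to 4. Every HET library was thus below every WT library, and the HET libraries were the more variable (coefficient of variation 12.1% against 3.88%). The means were 489 ± 59.3 CPM (SD, n = 4) in HET and 673 ± 26.1 CPM in WT, a difference of -27.3% and a log2 fold change of -0.46 (SE 0.09). The gene lies at chr7:28376784-28380253 on GRCm38 and overlaps an antisense gene, Gm44710. The strand setting of the counting was not stated, so reads of the overlap cannot be assigned to either. Zfp36l1 (chr12:80107754-80113013) and Zfp36l2 (chr17:84183931-84187947) also lie opposite noncoding genes, Gm26669 and AC132455.1.

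Zfp36l1, a relative that with Zfp36l2 holds back the cell cycle in developing B cells, was at 346, 373, 337 and 453 CPM in HET and 485, 373, 417 and 431 CPM in WT. The groups overlapped, with HET replicate 4 above 3 of the WT libraries. The log2 fold change was -0.18 (SE 0.11), with -0.27 without HET replicate 4 and -0.11 without WT replicate 1.

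Zfp36l2 differed in the other direction from Zfp36. It was at 42.8, 64.0, 46.9 and 41.6 CPM in HET and 31.3, 38.1, 39.2 and 38.5 CPM in WT, a log2 fold change of 0.41 (SE 0.19). HET replicate 2 was the highest library and WT replicate 1 the lowest, and without HET replicate 2 the log2 fold change was 0.26. The separation depended on the scale: in TPM the lowest HET library, at 29.9, was below the highest WT library, at 31.2.

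The family was also described as a whole, by summed TPM. The 3 genes together amounted to 783 ± 34.5 TPM (SD, n = 4) in HET and 1027 ± 44.4 TPM in WT, without overlap. Zfp36 made up 57.2% to 66.8% of this sum in HET and 64.0% to 70.3% in WT, so that it was the dominant member in every library. The difference of Zfp36 was known when the genes were chosen, so nothing about the family is read from the separation of the sums. Zfp36l2 made up 3.83% to 6.52% in HET and 2.33% to 2.94% in WT.

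In the BTG/TOB family, Btg1, which is highly expressed in resting lymphocytes, was the gene whose groups did not overlap. It was at 1190, 1416, 1407 and 1158 CPM in HET and 1588, 1449, 1563 and 1739 CPM in WT. The gap between the groups was narrow, from 1416 CPM in HET replicate 2 to 1449 CPM in WT replicate 2. Its log2 fold change was -0.29 (SE 0.08), a difference of the means of -18.4%. The gene lies at chr10:96617006-96622809, Btg2 at chr1:134075170-134079120 and Tob1 at chr11:94211454-94215495.

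Btg2, which is induced by p53 and by antigen receptor signals, was at 375, 384, 316 and 299 CPM in HET and 344, 354, 387 and 352 CPM in WT. HET replicates 3 and 4 lay below every WT library, and HET replicates 1 and 2 lay above 3 of the 4 WT libraries. The log2 fold change was -0.06 (SE 0.10), and -0.0012 without HET replicate 4. Tob1 was at 10.9, 13.2, 8.39 and 14.1 CPM in HET and 15.1, 12.3, 13.3 and 16.2 CPM in WT. The groups overlapped, with a log2 fold change of -0.29 (SE 0.30), which was -0.16 without HET replicate 3.

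Regnase-1 (Zc3h12a, chr4:125118423-125127840) and the Roquins (Rc3h1, chr1:160906418-160974978, and Rc3h2, chr2:37370069-37422903) showed no separation. Zc3h12a ranged from 5.46 to 9.14 CPM in HET and from 5.08 to 12.1 CPM in WT, with a log2 fold change of -0.12 (SE 0.40). Rc3h1 ranged from 33.3 to 51.4 CPM in HET and from 42.9 to 50.9 CPM in WT (log2 fold change -0.04, SE 0.18). Rc3h2 ranged from 20.6 to 29.1 CPM in HET and from 18.2 to 30.5 CPM in WT (log2 fold change 0.04, SE 0.24). All 3 fold changes were smaller than their SE. The sign turned for Zc3h12a without WT replicate 3 (0.15) or HET replicate 4 (0.0038), for Rc3h1 without HET replicate 3 (0.09) or WT replicate 2 (0.01), and for Rc3h2 without WT replicate 2 (-0.07) or HET replicate 2 (-0.05).

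**Figure D4:**
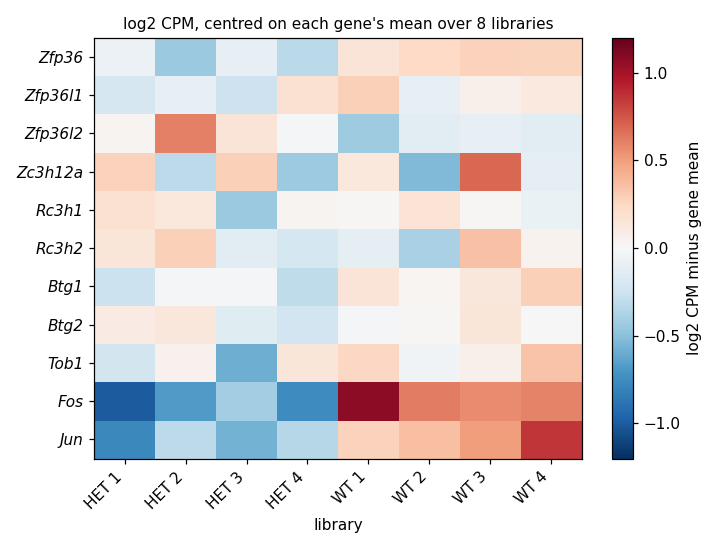
log2 CPM of the 9 genes, Fos and Jun in each library, with each gene's mean over the 8 libraries set to 0; red is above and blue below that mean. Zfp36 and Btg1 are below their mean in all 4 HET libraries and above it in all 4 WT libraries, as are Fos and Jun, and the other genes are mixed.

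The libraries differed in other transcripts along with Zfp36 and Btg1. Of 17 immediate early genes, with the 9 genes left out, 16 were tested, and all 16 had a lower mean in HET, with a median log2 fold change of -0.33. Their summed level was 1587 to 2028 CPM in HET and 2170 to 2878 CPM in WT. This list, like the others, was compiled with earlier results of these data known. Its count and sum may therefore follow in part from that choice. edgeR called 3 of them, and these were all the genes called: Fos (log2 fold change -1.43, SE 0.15, edgeR adjusted p = 0.00206), Jun (-1.004, SE 0.14, edgeR adjusted p = 0.0411) and Ppp1r15a (-1.07, SE 0.16, edgeR adjusted p = 0.0411). Fos stood at 76.4 to 114 CPM in HET and 226 to 320 CPM in WT. It was called whichever library was left out (edgeR adjusted p from 0.00409 to 0.0392). None of the 3 was called with replicate number as a block (edgeR adjusted p = 0.0619 for Fos). The same held for limma on log2(TPM + 1) (limma adjusted p = 0.0962 for Fos) and on log2(TPM + 0.1) (limma adjusted p = 0.0542 for Fos). With 1 library left out, Jun kept its call only without WT replicate 1 (edgeR adjusted p otherwise 0.0558 to 0.174), and Ppp1r15a lost it each time (0.0558 to 0.199).

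The 7 B cell markers were all detected in every library, at a summed level of 9884 to 11136 CPM in HET and 11526 to 12270 CPM in WT, and all 7 had a lower mean in HET (median log2 fold change -0.21, 5 at an unadjusted p under 0.05, 0 called by edgeR, 1 by DESeq2). The 10 T cell markers summed to 275 to 506 CPM in HET and 165 to 415 CPM in WT, with Cd4 at no more than 0.758 CPM, and all 9 tested were higher in HET (median 0.55, 0 called by edgeR, 0 at an unadjusted p under 0.05, 0 called by DESeq2). Myeloid markers (8 genes) summed to 31.4 to 107 CPM in HET and 32.8 to 464 CPM in WT, where WT replicate 2 was highest. Antibody-secreting cell markers (6 genes) summed to 2095 CPM in HET replicate 1 and at most 550.2 CPM in the other libraries. Most of the sum in HET replicate 1 was a single transcript, Jchain, at 1576 CPM. Xbp1 was at 297 CPM in HET replicate 1 and 313 CPM in HET replicate 4. Without HET replicate 1 the log2 fold change of Zfp36 was -0.51, and without WT replicate 2 it was -0.46. The part of the immediate early genes and of the B cell, T cell, myeloid and antibody-secreting cell markers in the differences of Zfp36 and Btg1 was not tested.

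Genes of the decay pathway other than the 9 lay in both directions. Over 7 lists (deadenylation, decapping, exosome, nonsense-mediated decay, other RNA-binding regulators, upstream kinases and proteases, and relatives of the 9), 94 genes were tested, of which 47 were lower and 47 higher in HET, with a median log2 fold change of -0.0023. edgeR called none of the 94. At an unadjusted p under 0.05, 1 was lower and 4 were higher, and DESeq2 called 1, Ddx6.

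Deadenylation, the step that ZFP36, Roquin and BTG/TOB proteins share, was represented by 17 genes, 8 lower and 9 higher in HET (median log2 fold change 0.0002). edgeR and DESeq2 called none and none had an unadjusted p under 0.05. The 3 genes with the lowest p were the CCR4-NOT subunits Cnot3 (-0.34, SE 0.20, edgeR adjusted p = 0.777), Cnot11 (0.42, SE 0.33, edgeR adjusted p = 0.841) and Cnot6 (0.18, SE 0.20, edgeR adjusted p = 0.892).

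Decapping and decay from the 5′ end comprised 19 tested genes, 7 lower and 12 higher in HET (median log2 fold change 0.08). Ddx6, an RNA helicase that links CCR4-NOT to decapping, was at 52.7, 42.2, 60.2 and 51.9 CPM in HET and 80.7, 82.7, 98.1 and 82.9 CPM in WT. All HET libraries were below all WT libraries. Its log2 fold change was -0.73 (SE 0.15), which did not pass in edgeR (adjusted p = 0.213) and passed in DESeq2 (adjusted p = 0.00256). The LSM ring subunits Lsm3 (log2 fold change 0.49, SE 0.19, edgeR adjusted p = 0.602) and Lsm6 (0.25, SE 0.12, edgeR adjusted p = 0.706) had the next lowest p, and neither was called by DESeq2.

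The list for decay from the 3′ end (exosome, SKI complex and related genes) had 16 tested genes, 5 lower and 11 higher in HET (median log2 fold change 0.07). Exosc9 (0.51, SE 0.23, edgeR adjusted p = 0.667), Dis3l2 (0.40, SE 0.25, edgeR adjusted p = 0.791) and Exosc8 (0.19, SE 0.13, edgeR adjusted p = 0.796) had the lowest p. Of 10 genes of nonsense-mediated decay, 8 were lower and 2 higher (median -0.18), and Upf3a (0.42, SE 0.20, edgeR adjusted p = 0.706), Smg6 (-0.45, SE 0.22, edgeR adjusted p = 0.714) and Smg1 (-0.24, SE 0.13, edgeR adjusted p = 0.736) had the lowest p. Neither tool called a gene of these lists.

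Among 14 other RNA-binding regulators, 7 were lower and 7 higher in HET (median -0.03). Arid5a, which protects some Regnase-1 targets, had a log2 fold change of 0.43 (SE 0.17, edgeR adjusted p = 0.612). Ybx1 (0.23, SE 0.09, edgeR adjusted p = 0.612) and Ptbp1 (0.14, SE 0.12, edgeR adjusted p = 0.853) followed. Of 14 upstream kinases and proteases, 10 were lower and 4 higher (median -0.06). Malt1, the protease that cleaves Regnase-1 and Roquin, had a log2 fold change of -0.33 (SE 0.17, edgeR adjusted p = 0.718), and its partner Bcl10 had one of -0.17 (SE 0.11, edgeR adjusted p = 0.795). Among the relatives, Tob2 (-0.21, SE 0.24, edgeR adjusted p = 0.896), Zc3h12d (-0.05, SE 0.18, edgeR adjusted p = 0.976) and Btg3 (0.06, SE 0.40, edgeR adjusted p = 0.982) had the lowest p. Neither tool called a gene of these 3 lists.

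Transcripts described as targets of the 3 families lay in both directions. Of 19 tested, 11 were lower and 8 higher in HET, with a median log2 fold change of -0.06, and edgeR called 1, the immediate early gene Fos given above. At an unadjusted p under 0.05, 4 were lower and 3 higher. DESeq2 called Fos and Dusp1. The 3 D-type cyclins, which drive entry into S phase, are named after their values were seen. Ccnd2 averaged 333 ± 37.8 CPM over the HET libraries (SD, n = 4), against 267 ± 41.4 CPM over those of WT (edgeR adjusted p = 0.604), and Ccnd3 at 210.2 ± 43.1 and 161 ± 27.4 CPM (edgeR adjusted p = 0.616). Ccnd1 was far rarer, at 7.49 ± 5.71 CPM in HET and 1.48 ± 1.77 CPM in WT (edgeR adjusted p = 0.636). None of the 3 was called, and their groups overlapped. The list was compiled from general knowledge, and a listing does not mean that the transcript is bound in these cells.

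**Figure D5:**
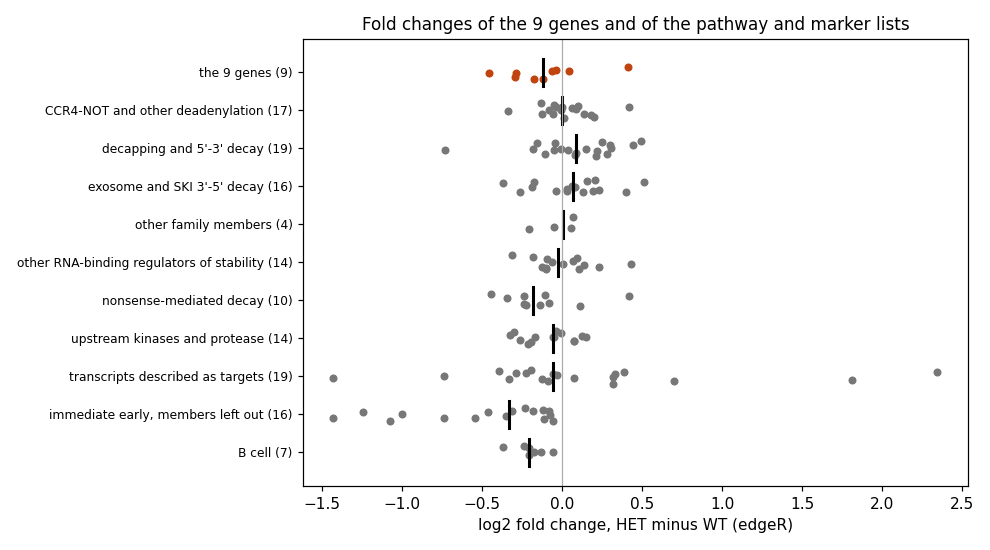
log2 fold change (HET minus WT) of each tested gene in the 9 genes, 8 pathway lists, the immediate early list and the B cell markers, with the number of tested genes in brackets; the black bar is the median. The 5 lists from deadenylation to other RNA-binding regulators have medians between -0.03 and 0.08, and the immediate early list has the lowest median, -0.33.

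The genes whose levels across the 8 libraries were most like those of Zfp36 were Mat2b, H2-T23, Ddx6, Parp14 and Ifi30, with Pearson r of log2 CPM from 0.955 to 0.978 among 7269 genes averaging 4 or more on the log2 CPM scale. For all 5, every HET library lay below every WT library, as for Zfp36 itself and for 2.62% of all genes tested. After the group means were subtracted r was 0.786 to 0.933. The 5 were picked for the highest r with Zfp36 out of 7269 genes, so both features follow in part from that choice. None of the 5 was called by edgeR (adjusted p from 0.213 to 0.738). Fos and Jun were not picked for r, so their values are not a like comparison. They had r of 0.832 and 0.762 with Zfp36 over all libraries, and -0.26 and -0.41 once the group means were subtracted. The genes most like Btg2 were mt-Co3, Oga, Orai2, Dcun1d1 and Bmp2k, with r from 0.923 to 0.943, and their groups overlapped. These correlations rest on 8 libraries that share their scaling and are given without a test.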

How the data were processed

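RNA was measured in 8 libraries, 4 per group. The authors prepared them with a SMART-Seq2 protocol adapted to about 200 cells, aligned reads to GRCm38 with Hisat2 (2.2.1, also given in the submitters' processing notes as mm10 and HISAT2) and counted them per gene with HTSeq-count. Annotation release and strand setting are not given in the sources used here. The deposited count table holds raw counts for 24259 symbols. The deposited TPM table was scaled per gene length by the authors and sums to 1000000 per library. Columns were matched to libraries by name.

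The members and lists were chosen with earlier results of these data known. Counts were analysed with edgeR 4.0.16 in R 4.3.3 (filterByExpr, TMM, robust quasi-likelihood F-test, Benjamini-Hochberg over 12744 genes, threshold 0.05). The SE was obtained as the absolute log2 fold change over the root of the F statistic. The replicates of a group came from 1 pool, so p-values measure the spread of sorting and library preparation, not that between recipients. Alternatives were DESeq2 1.42.0 (the study's tool), scaling by RLE, testing all genes or those averaging 50 or more counts, a replicate block, limma-trend (limma 3.58.1) on log2(TPM + 1) and log2(TPM + 0.1), and each library left out. Named genes are the 9, the called genes of each list or else its 3 with the lowest p, the 5 most like Zfp36 and Btg2, and Fos and Jun. Ppp1r15a, Dusp1 and the D-type cyclins were named after their values were seen, and 1 gene that the rule names is not reported here. The fit was tested on simulated data. Positions and 3′ UTRs are from GENCODE M21 and promoters from RefSeq (GRCm38.p6). Motifs in 3′ UTRs were searched on the transcribed strand and in promoters on both strands. Of the 9 genes, 8 matched the promoter table.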

Additional observations from a re-analysis of the deposited data

Results flagged for a closer look

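Of 18 groups of 4 values examined (9 genes in 2 groups), 1 held a library that stood apart from the others of its group. Zfp36l2 was at 31.3 CPM in WT replicate 1 while WT replicates 2 to 4 lay between 38.1 and 39.2 CPM, a gap that took up 0.856 of the range and passed Dixon's 95% critical value for 4 values. Chance marks about 1 in 20 such groups. Without WT replicate 1 the log2 fold change of Zfp36l2 was 0.33, against 0.41 with all libraries.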

How the results depend on the processing

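None of the 135 member fold changes under 15 alternatives moved by more than 1 SD of the libraries. Leaving out 1 of 4 libraries can hardly shift a group mean that far, so for those alternatives this count says little. Zfp36 (-0.52 to -0.39), Zfp36l1 (-0.27 to -0.11), Btg1 (-0.35 to -0.24), Btg2 (-0.12 to -0.0012) and Tob1 (-0.39 to -0.16) were lower and Zfp36l2 (0.26 to 0.48) higher in HET in all 15, while Zc3h12a, Rc3h1 and Rc3h2 lay on either side of 0. DESeq2 called 95 genes in all, 3 pathway genes (Ddx6, Dusp1 and Fos) and 1 of the 9 (Zfp36). Without a filter 38 genes, 2 pathway genes (Ddx6 and Fos) and 1 of the 9 (Zfp36) passed in edgeR, and with a mean of at least 50 counts 7 genes passed. With the replicate block edgeR called 0 genes and 0 pathway genes (912 genes at an unadjusted p under 0.05). Over all genes tested, deviations of same-numbered libraries from their group means had correlations from -0.05 to 0.01. Those of differently numbered libraries ranged from -0.07 to 0.07. Whether same-numbered libraries shared a preparation was not tested. Limma-trend called 0 genes and 0 pathway genes on log2(TPM + 1) (982 at an unadjusted p under 0.05), and 1 gene and 0 pathway genes on log2(TPM + 0.1). With 1 library left out, 1 to 6 genes were called (6 without WT replicate 1). The cause of these changes was not tested. Order by CPM, which is not per length, raised Rc3h1 above Zfp36l2 and Rc3h2 above Tob1 and put Zc3h12a last. Counting depth limits Zc3h12a and Tob1 most.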

Other observations

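Within groups, after subtracting group means, a few of the 9 genes varied together over the 8 libraries. Zfp36l1 and Tob1 had a Pearson r of 0.783 (0.843 before subtraction), and Btg2 and Rc3h2 had 0.772 (0.706). Zfp36 and Btg1, which were both lower in HET, had 0.673 over all libraries and -0.13 within groups. Zfp36 and Tob1 had 0.24 over all libraries and -0.70 within groups. They were picked from 36 pairs after their values were seen, the pairs share libraries and scaling, and no test was made.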
